A study of Homo sapiens with 10 samples.

Results

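Histone genes were examined in MM.1S, a human multiple myeloma cell line, on 10 Affymetrix arrays of total RNA taken 48 h after lentiviral infection. Genes were included if their platform symbol belonged to the H1, H2A, H2B, H3 or H4 series (symbols starting H1-, H2AC, H2AX, H2AJ, H2AW, H2BC, H2BU, H2BW, H3-, H3C or H4C, or H4-16), without H2AZ1 and H2AZ2. Each was represented by the single-symbol probe set with the highest mean, which gave 56 genes of the 19775 measured. The 5 groups of 2 arrays carried short hairpin RNAs against DNMT1 (shDNMT1#2 and shDNMT1#1), against HDAC3 (shHDAC3#2 and shHDAC3#1) or, as the control, against luciferase (shLuc). All cells were thus infected with a hairpin, and the labels name shLuc as the control of the HDAC3 hairpins. They do not say whether the DNMT1 arrays were infected and hybridized together with the others, so in DNMT1 minus shLuc and DNMT1 minus HDAC3 the knockdown and a possible batch cannot be told apart. Separate cultures are not stated for the 2 arrays of a group. The p-values therefore cover only array-to-array spread, possibly technical, and the small number of arrays limits the precision.

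DNMT1 copies DNA methylation onto newly replicated strands, and HDAC3 removes acetyl groups from histone tails within the NCoR and SMRT co-repressor complexes. Histones package the DNA that both enzymes act on: H2A, H2B, H3 and H4 form the nucleosome core and H1 binds the linker DNA. Most histone genes lie in clusters and are transcribed in S phase under NPAT and CASP8AP2. Their messages end in a stem-loop bound by SLBP instead of a poly(A) tail. Replication-independent histone genes lie alone in the genome and make polyadenylated messages throughout the cell cycle, and some clustered genes are known to make polyadenylated messages as well. Standard labelling for these arrays starts at the poly(A) tail, so the values below describe mainly polyadenylated histone RNA and not the stem-loop messages that supply most histone protein in dividing cells.

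Of the 56 genes, 43 were clustered and 3 were replication-independent (H1-10, H2AJ and H3-3A). A further 5 lay outside the large clusters (H2AX, H1-7, H1-8, H2BW2 and H2BC12L), and 5 were pseudogenes or an antisense RNA (H2BW4P, H2AC5P, H1-9P, H4C10P and H1-10-AS1). H3-3B and H3-5 had no probe set with a single symbol and were not analysed here as genes. On the log2 scale of the deposited values, 34 genes averaged at least 5 over the 10 arrays and 22 less. Probe sets at the low end may report little beyond background, where changes are compressed. No genes were removed for low values.

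The promoters of 5 genes that differed between hairpins or in both knockdowns are shown first, picked without a ranking by size. H2BC6, the H2B gene with the highest mean among those called in no contrast, is added for comparison. The sequences are the 150 bases upstream of the gene start, 5′ to 3′ on the gene's strand, from RefSeq on build GRCh38.p14. Capitals mark matches, on either strand, to CCAAT (the CCAAT box), TATAAA (the TATA box), ATTTGCA (the core of the octamer bound by OCT1), TTCCCGC (an E2F motif) and AAACACA (the H1 box).
H2BC12 (chr6:27146859-27147008, minus strand): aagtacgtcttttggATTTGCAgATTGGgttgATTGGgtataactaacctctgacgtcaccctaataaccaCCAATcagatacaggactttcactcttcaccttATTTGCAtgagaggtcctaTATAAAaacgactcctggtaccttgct
H2BC5 (chr6:26157971-26158120, plus strand): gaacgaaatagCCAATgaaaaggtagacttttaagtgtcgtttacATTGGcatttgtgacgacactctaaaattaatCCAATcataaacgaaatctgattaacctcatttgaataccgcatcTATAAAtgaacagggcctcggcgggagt
H2AC6 (chr6:26124022-26124171, plus strand): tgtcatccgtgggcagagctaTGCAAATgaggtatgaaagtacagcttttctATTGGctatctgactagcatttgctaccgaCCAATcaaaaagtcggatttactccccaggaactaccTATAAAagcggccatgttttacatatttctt
H1-2 (chr6:26056471-26056620, minus strand): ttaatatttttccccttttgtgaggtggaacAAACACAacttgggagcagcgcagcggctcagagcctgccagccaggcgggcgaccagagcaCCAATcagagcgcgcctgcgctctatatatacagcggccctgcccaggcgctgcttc
H1-10 (chr3:129316287-129316436, minus strand): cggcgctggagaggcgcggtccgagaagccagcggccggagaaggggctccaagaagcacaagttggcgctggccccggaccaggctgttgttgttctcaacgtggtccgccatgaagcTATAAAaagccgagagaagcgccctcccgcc
H2BC6 (chr6:26183611-26183760, plus strand): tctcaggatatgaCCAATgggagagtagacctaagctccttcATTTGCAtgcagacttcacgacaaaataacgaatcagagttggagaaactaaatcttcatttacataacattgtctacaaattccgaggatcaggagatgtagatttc
No match shown overlapped another.

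H2BC12 held 3 CCAAT matches, 2 octamer matches (first bases 135 and 46 before the start) and a TATA match 27 before it. H2BC5 held 3 CCAAT matches and a TATA match but no ATTTGCA within these bases. H2AC6 held an octamer, 2 CCAAT matches and a TATA match, whereas H1-2 carried 1 CCAAT match and the H1 box 119 before the start. The only match in the H1-10 sequence was TATAAA, 31 before the start. H2BC15, which also differed between hairpins and is not shown, held CCAAT but neither TATAAA nor ATTTGCA in 250 bases upstream. Promoter entries were found for 48 of the 56 genes, and H1-10-AS1, H1-9P, H2AC5P, H2BC12L, H2BW4P, H3C11, H4C1 and H4C10P had none. Over 250 bases upstream, CCAAT occurred in 87.5% of those 48 promoters, against 33.04% of all 27305 promoters of the same length. TATAAA occurred in 62.5% of the histone promoters and 11.1% of all, ATTTGCA in 33.3% and 3.70%, AAACACA in 14.6% and 4.95%, and TTCCCGC in 10.4% and 5.59%. All 16 promoters with ATTTGCA belonged to clustered H2A or H2B genes, and AAACACA was found only in promoters of 7 H1 genes (H1-1 to H1-7). These matches describe the letters in the window and were not tested for binding.

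The target messages and the cell line were checked first. DNMT1 signal averaged 6.17 and 5.88 with shDNMT1#2 and shDNMT1#1, against 8.41 with shLuc (log2 change -2.39 ± 0.10 SE). HDAC3 averaged 5.67 and 5.85 with shHDAC3#2 and shHDAC3#1, against 6.94 with shLuc (-1.18 ± 0.16). DNMT1 was also lower in the HDAC3 knockdown, at 7.76 and 7.21 with its 2 hairpins (-0.92 ± 0.10). In turn, HDAC3 averaged 6.33 with shDNMT1#2 and 6.81 with shDNMT1#1, where the 2 shLuc arrays measured 7.26 and 6.61. Of 9 plasma cell markers, 8 averaged at least 7, whereas only COL1A1, PDGFRB, KRT8 and HBB did so among the markers of T, myeloid, stromal, epithelial, erythroid and endothelial cells. The 3′ minus 5′ difference of the ACTB control probe sets, which reads RNA integrity, was 0.711 with shDNMT1#2, 0.721 with shDNMT1#1, 0.737 with shHDAC3#2 and 1.00 with shHDAC3#1, against 0.727 with shLuc. The shHDAC3#1 arrays therefore stood apart on this measure, and its part in the results below was not tested.

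Against shLuc, 4 histone genes were lower and 4 higher in the DNMT1 knockdown, and 4 were lower and 6 higher in the HDAC3 knockdown. The 4 lower genes were the same in both: the linker histone genes H1-10 and H1-2 and the H2B genes H2BC12 and H2BC5. H3-4 and H4C7 were higher in both. The 2 comparisons share the shLuc arrays. Genes were called with limma at a Benjamini-Hochberg adjusted p under 0.05 over all 19775 genes, two-sided, with 4 knockdown arrays against 2 shLuc arrays. By this rule 20.2% of all genes were called in the DNMT1 knockdown (13.5% lower and 6.66% higher) and 19.2% in the HDAC3 knockdown (15.3% lower and 3.96% higher). The 8 and 10 histone genes called are 14.3% and 17.9% of the 56, below those backgrounds. By direction, the 4 lower genes of each knockdown are 7.14% of the 56, below the background. The 4 and 6 higher genes are 7.14% and 10.7%, near the background in the DNMT1 knockdown and above it in the HDAC3 knockdown. The median histone change was 0.08 in the DNMT1 knockdown and 0.11 in the HDAC3 knockdown, against 0.07 and 0.05 over all genes. Array values are of whole cultures, so fewer cells of a type and less RNA per cell cannot be told apart. The first shLuc array carried much of these counts: without it, 1 gene was lower and none higher in the DNMT1 knockdown, and 2 were lower and none higher in the HDAC3 knockdown (3 and 6 higher at an unadjusted limma p under 0.05). Of the other arrays, 2 genes were lower in the DNMT1 knockdown without the second shDNMT1#1 array or either shDNMT1#2 array and 8 were higher without the first shDNMT1#1 array, and 3 were higher in the HDAC3 knockdown without the first shHDAC3#1 array. With the hairpin as a random block, limma called no histone gene in either knockdown, against 0 lower and 3 higher in the DNMT1 knockdown and 2 lower and 2 higher in the HDAC3 knockdown at an unadjusted p under 0.05.

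**Figure D1:**
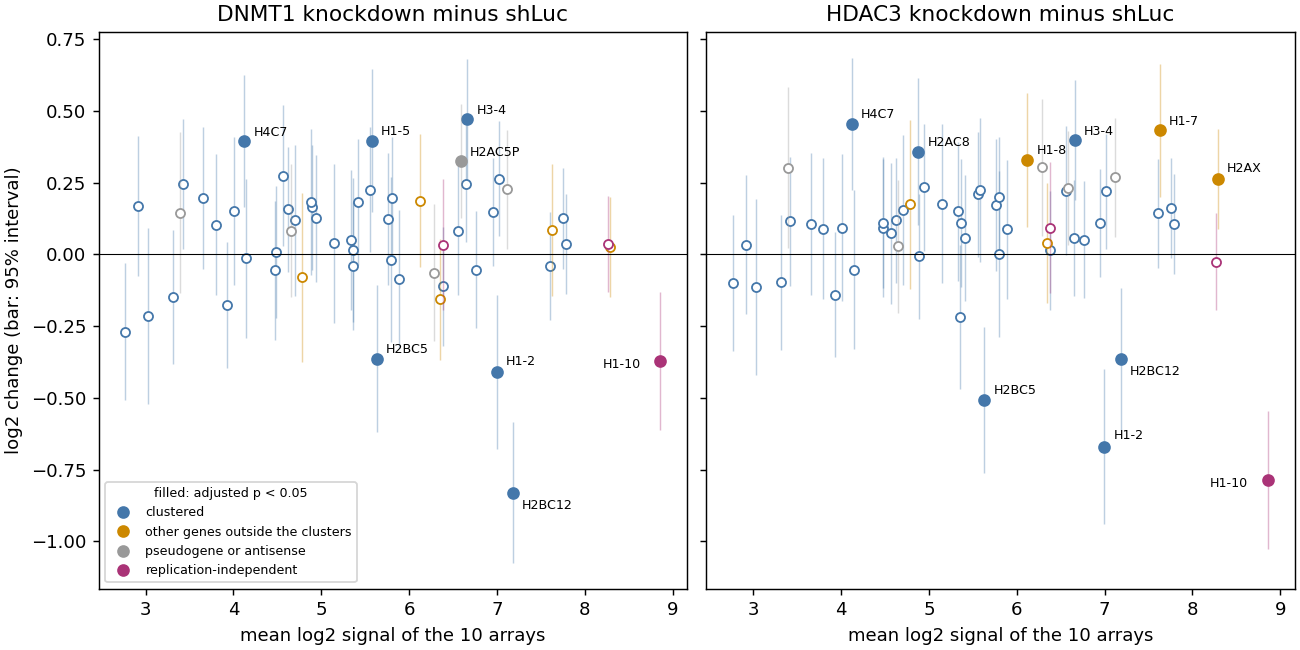
Log2 change of each of the 56 histone genes (vertical axis, with its 95% interval) against its mean log2 signal over the 10 arrays, for the DNMT1 knockdown (left) and the HDAC3 knockdown (right), coloured by class and filled where called. H1-10, H1-2, H2BC5 and H2BC12 lie below 0 in both panels, with H1-10 at -0.37 and -0.79, while the 43 clustered genes have medians of 0.10 and 0.11.

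The clustered genes as a class showed little change. In the DNMT1 knockdown 3 of 43 were lower and 3 higher, with a median of 0.10, and in the HDAC3 knockdown 3 were lower and 3 higher, with a median of 0.11. Their median signal on single arrays ran between 5.21 and 5.42, and the shLuc arrays, at 5.27 and 5.36, lay inside the range of the knockdown arrays. By family, the median change in the DNMT1 and then the HDAC3 knockdown was 0.04 and 0.05 over 6 H1 genes, 0.05 and 0.13 over 8 H2A genes, -0.04 and 0.09 over 13 H2B genes, 0.22 and 0.07 over 8 H3 genes, and 0.13 and 0.15 over 8 H4 genes. Among the 3 replication-independent genes, H1-10 was lower in both knockdowns and H2AJ and H3-3A were called in none of the contrasts. The H3-3A probe set used here averaged 6.38. By contrast, 4 probe sets shared by H3.3 genes and the pseudogene H3P6 averaged 12.27 to 12.71. Those 4, described below, were called lower in the HDAC3 knockdown, so the H3-3A result does not cover all H3.3 signal. With 3 genes, a difference between the classes was not tested.

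H1-10 encodes H1.10, a linker histone whose expression is not tied to S phase. It measured 8.81 and 8.82 with shDNMT1#2, 9.32 and 8.86 with shDNMT1#1, 8.57 and 8.77 with shHDAC3#2 and 8.30 and 8.50 with shHDAC3#1, against 9.50 and 9.14 with shLuc. Every HDAC3 knockdown array lay below both shLuc arrays, while 1 shDNMT1#1 array lay between them. The change was -0.37 ± 0.12 (SE; adjusted p = 0.027) in the DNMT1 knockdown and -0.79 ± 0.12 (SE; adjusted p = 3.35e-05) in the HDAC3 knockdown, or 77.3% and 58.0% of the shLuc signal. Of 18 alternative settings, 17 kept the call in the HDAC3 knockdown and 10 in the DNMT1 knockdown, where leaving out the first shLuc array, the second shDNMT1#1 array or either shDNMT1#2 array ended it. Its difference between the knockdowns was 0.41 ± 0.09 (SE; adjusted p = 0.00543). The antisense RNA H1-10-AS1, from the opposite strand of this locus, changed by 0.08 and 0.03 and was not called. H2AJ, which encodes an H2A variant, measured 8.22 and 8.27 with shDNMT1#2, 8.32 and 8.38 with shDNMT1#1, 8.08 and 8.23 with shHDAC3#2 and 8.35 and 8.29 with shHDAC3#1, against 8.26 and 8.27 with shLuc. H3-3A, a gene for the replacement histone H3.3, measured 6.06 and 6.35 with shDNMT1#2, 6.65 and 6.39 with shDNMT1#1, 6.19 and 6.38 with shHDAC3#2 and 6.63 and 6.49 with shHDAC3#1, against 6.29 and 6.38 with shLuc. For both genes the shDNMT1#1 and shHDAC3#1 arrays lay above both shLuc arrays, and for H2AJ the shHDAC3#2 arrays lay below them. The arrays of each knockdown lay on both sides of shLuc, and the changes of H2AJ and H3-3A, none of them called, were 0.04 and 0.03 in the DNMT1 knockdown and -0.02 and 0.09 in the HDAC3 knockdown.

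H1-2, a clustered gene for the somatic linker histone H1.2, fell in both knockdowns. It measured 7.08 and 6.67 with shDNMT1#2, 7.22 and 7.12 with shDNMT1#1, 6.88 and 7.04 with shHDAC3#2 and 6.52 and 6.60 with shHDAC3#1, against 7.71 and 7.15 with shLuc. All HDAC3 knockdown arrays lay below both shLuc arrays, as did 3 of the 4 DNMT1 knockdown arrays, while 1 shDNMT1#1 array lay between them. The change was -0.41 ± 0.13 (SE; adjusted p = 0.0298) in the DNMT1 knockdown and -0.67 ± 0.13 (SE; adjusted p = 0.000647) in the HDAC3 knockdown. It was called in 15 of 19 alternatives in the DNMT1 knockdown and in 17 of 19 in the HDAC3 knockdown, in neither knockdown without the first shLuc array and not in the DNMT1 knockdown without the second shDNMT1#2 array. H1-5, the clustered gene for H1.5, moved the other way. It measured 6.11 and 5.65 with shDNMT1#2, 5.57 and 5.59 with shDNMT1#1, 5.35 and 5.59 with shHDAC3#2 and 5.67 and 5.61 with shHDAC3#1, against 5.30 and 5.36 with shLuc, and its change was 0.40 ± 0.12 (SE; adjusted p = 0.0232) in the DNMT1 knockdown and 0.22 ± 0.12 (SE; adjusted p = 0.192) in the HDAC3 knockdown, with a difference between the knockdowns of 0.17 ± 0.10 (SE; adjusted p = 0.328), which was not called. The H1-5 call in the DNMT1 knockdown was kept in 14 of 19 alternatives. H1-3, for H1.3, was called in neither knockdown, and H1-1, H1-4 and H1-6 in no contrast.

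H2BC12 was the histone gene whose change differed most between hairpins. It encodes a replication-dependent H2B and is known to make a polyadenylated message too. It measured 7.16 and 7.18 with shDNMT1#2, 6.60 and 6.39 with shDNMT1#1, 8.21 and 8.44 with shHDAC3#2 and 6.44 and 6.10 with shHDAC3#1, against 7.86 and 7.46 with shLuc. The shHDAC3#2 arrays lay above both shLuc arrays and those of the other 3 knockdown groups lay below them, with no overlap. The change was -0.49 ± 0.14 (SE; adjusted p = 0.0111) with shDNMT1#2, -1.17 ± 0.14 (SE; adjusted p = 6.15e-06) with shDNMT1#1, 0.66 ± 0.14 (SE; adjusted p = 0.00193) with shHDAC3#2 and -1.39 ± 0.14 (SE; adjusted p = 1.66e-07) with shHDAC3#1. The mean over the 2 HDAC3 hairpins, -0.36 ± 0.12 (SE; adjusted p = 0.0347), therefore joined changes of opposite sign and describes neither hairpin. It was called in 12 of 19 alternatives, and not without the first shLuc array, the second shHDAC3#1 array or the first shHDAC3#2 array. In the DNMT1 knockdown both hairpins moved one way, to a mean change of -0.83 ± 0.12 (SE; adjusted p = 2.65e-05).

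**Figure D2:**
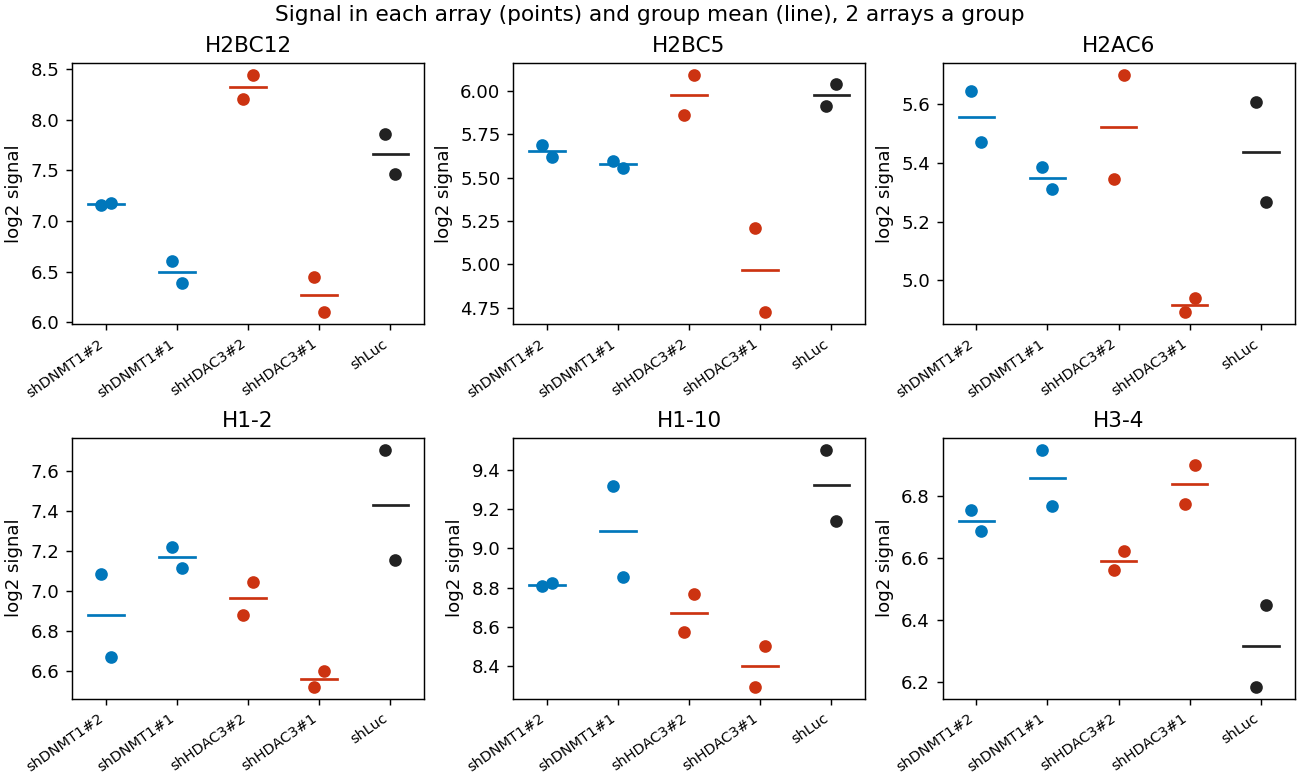
Log2 signal of 6 histone genes in each of the 10 arrays (points) with the mean of the 2 arrays of a group (line). For H2BC12 the shHDAC3#2 arrays, at 8.21 and 8.44, lie above shLuc and the other knockdown arrays below it; H3-4 is the one gene shown whose shLuc arrays are the lowest.

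H2BC5, a second H2B gene of the chromosome 6 cluster known for a polyadenylated message, measured 5.69 and 5.62 with shDNMT1#2, 5.60 and 5.56 with shDNMT1#1, 5.86 and 6.09 with shHDAC3#2 and 5.21 and 4.72 with shHDAC3#1, against 5.91 and 6.04 with shLuc. The shHDAC3#2 arrays overlapped shLuc, and all other knockdown arrays lay below both shLuc arrays. Its change was -0.36 ± 0.12 (SE; adjusted p = 0.0408) in the DNMT1 knockdown and -0.51 ± 0.12 (SE; adjusted p = 0.00496) in the HDAC3 knockdown. The HDAC3 value joined -0.002 with shHDAC3#2 and -1.01 with shHDAC3#1. In the DNMT1 knockdown 11 of 18 alternatives kept the call and in the HDAC3 knockdown 16 of 18 did. It was lost without the first shLuc array in the DNMT1 knockdown and without the second in both, and in the DNMT1 knockdown also without the second shDNMT1#1 array or either shDNMT1#2 array. A second H2BC5 probe set changed by -0.41 in the DNMT1 knockdown and -0.28 in the HDAC3 knockdown, with -0.09 with shHDAC3#2 and -0.46 with shHDAC3#1. Both H2BC5 probe sets are of the _x_at kind, which can bind related transcripts, so other H2B messages may add to either. H2AC6, an H2A gene of the same cluster, measured 5.65 and 5.47 with shDNMT1#2, 5.39 and 5.31 with shDNMT1#1, 5.35 and 5.70 with shHDAC3#2 and 4.89 and 4.94 with shHDAC3#1, against 5.61 and 5.27 with shLuc. The 2 shHDAC3#1 arrays were the lowest, with a change of -0.52 ± 0.14 (SE; adjusted p = 0.00933), and neither knockdown mean was called.

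The genes that rose changed by at most 0.47 in either knockdown. H3-4, the testis H3 variant gene H3.4, measured 6.75 and 6.69 with shDNMT1#2, 6.95 and 6.77 with shDNMT1#1, 6.56 and 6.62 with shHDAC3#2 and 6.77 and 6.90 with shHDAC3#1, against 6.18 and 6.45 with shLuc. All 8 knockdown arrays lay above both shLuc arrays, with a change of 0.47 ± 0.10 (SE; adjusted p = 0.00172) in the DNMT1 knockdown and 0.40 ± 0.10 (SE; adjusted p = 0.00704) in the HDAC3 knockdown. H4C7, an atypical H4 gene with a low signal, measured 4.16 and 4.27 with shDNMT1#2, 4.14 and 4.15 with shDNMT1#1, 4.19 and 4.21 with shHDAC3#2 and 4.45 and 4.12 with shHDAC3#1, against 3.76 and 3.81 with shLuc. Here too no knockdown array overlapped shLuc, and the change was 0.40 ± 0.11 (SE; adjusted p = 0.0144) in the DNMT1 knockdown and 0.46 ± 0.11 (SE; adjusted p = 0.00504) in the HDAC3 knockdown. For H3-4, 17 of 19 alternatives kept each call and for H4C7 16 of 18, and neither rise was called without the first shLuc array.

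H2AC5P, an H2A pseudogene, rose in the DNMT1 knockdown. It measured 6.74 and 6.77 with shDNMT1#2, 6.62 and 6.63 with shDNMT1#1, 6.50 and 6.56 with shHDAC3#2 and 6.74 and 6.59 with shHDAC3#1, against 6.27 and 6.46 with shLuc, with no knockdown array at or below either shLuc array, and changed by 0.33 ± 0.09 (SE; adjusted p = 0.0188) in that knockdown and by 0.23 in the HDAC3 knockdown, where it was not called. H2AC8, an H2A gene, measured 4.98 and 4.88 with shDNMT1#2, 4.74 and 4.80 with shDNMT1#1, 4.87 and 5.16 with shHDAC3#2 and 5.20 and 4.86 with shHDAC3#1, against 4.53 and 4.80 with shLuc. The lowest HDAC3 knockdown array was 4.86, against 4.80 for the higher shLuc array, and its change there was 0.36 ± 0.12 (SE; adjusted p = 0.0445). H1-8, the oocyte linker histone gene, measured 6.25 and 5.91 with shDNMT1#2, 6.10 and 6.15 with shDNMT1#1, 6.17 and 6.05 with shHDAC3#2 and 6.47 and 6.29 with shHDAC3#1, against 5.82 and 6.01 with shLuc, and changed by 0.33 ± 0.11 (SE; adjusted p = 0.0427) in the HDAC3 knockdown. H1-7, a linker histone gene of developing sperm, measured 7.31 and 7.27 with shDNMT1#2, 7.53 and 7.93 with shDNMT1#1, 7.74 and 7.62 with shHDAC3#2 and 8.15 and 7.91 with shHDAC3#1, against 7.29 and 7.56 with shLuc. It was higher in the HDAC3 knockdown by 0.43 ± 0.11 (SE; adjusted p = 0.00772) and differed between the knockdowns by -0.35 ± 0.09 (SE; adjusted p = 0.0157). Its 3 probe sets did not move alike: in the fit over all probe sets, another changed by 0.47 in the DNMT1 knockdown and 0.27 in the HDAC3 knockdown, the reverse order. In the HDAC3 knockdown, 11 of 18 alternatives kept the call of H2AC8, 13 of 19 that of H1-8 and 17 of 19 that of H1-7. For H2AC5P in the DNMT1 knockdown, 17 of 19 did.

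H2AX encodes the H2A variant phosphorylated at DNA breaks, and its gene is known to make both a stem-loop and a polyadenylated message. By its brightest probe set it measured 8.07 and 8.13 with shDNMT1#2, 8.19 and 8.41 with shDNMT1#1, 8.27 and 8.30 with shHDAC3#2 and 8.60 and 8.57 with shHDAC3#1, against 8.15 and 8.20 with shLuc. The shHDAC3#1 arrays were the highest, and the change was 0.26 ± 0.08 (SE; adjusted p = 0.0316) in the HDAC3 knockdown and 0.03 in the DNMT1 knockdown, a difference of -0.23 ± 0.07 (SE; adjusted p = 0.0315). A second H2AX probe set went another way. In the fit over all 54613 probe sets it measured 7.50 and 7.30 with shDNMT1#2, 8.32 and 7.99 with shDNMT1#1, 7.46 and 7.61 with shHDAC3#2 and 8.50 and 8.52 with shHDAC3#1, against 8.43 and 8.02 with shLuc. That was a change of -0.82 with shDNMT1#2 and -0.69 with shHDAC3#2, both called, and of -0.07 with shDNMT1#1 and 0.28 with shHDAC3#1, neither called. Which H2AX transcript each probe set reads was not examined, and the direction for H2AX depends on the probe set. The mean of its 4 probe sets was not called in the HDAC3 knockdown. Of 18 alternatives, 9 kept the H2AX call in the HDAC3 knockdown and 8 that between the knockdowns. With shHDAC3#2 alone the brightest probe set changed by 0.11, which was not called.

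**Figure D3:**
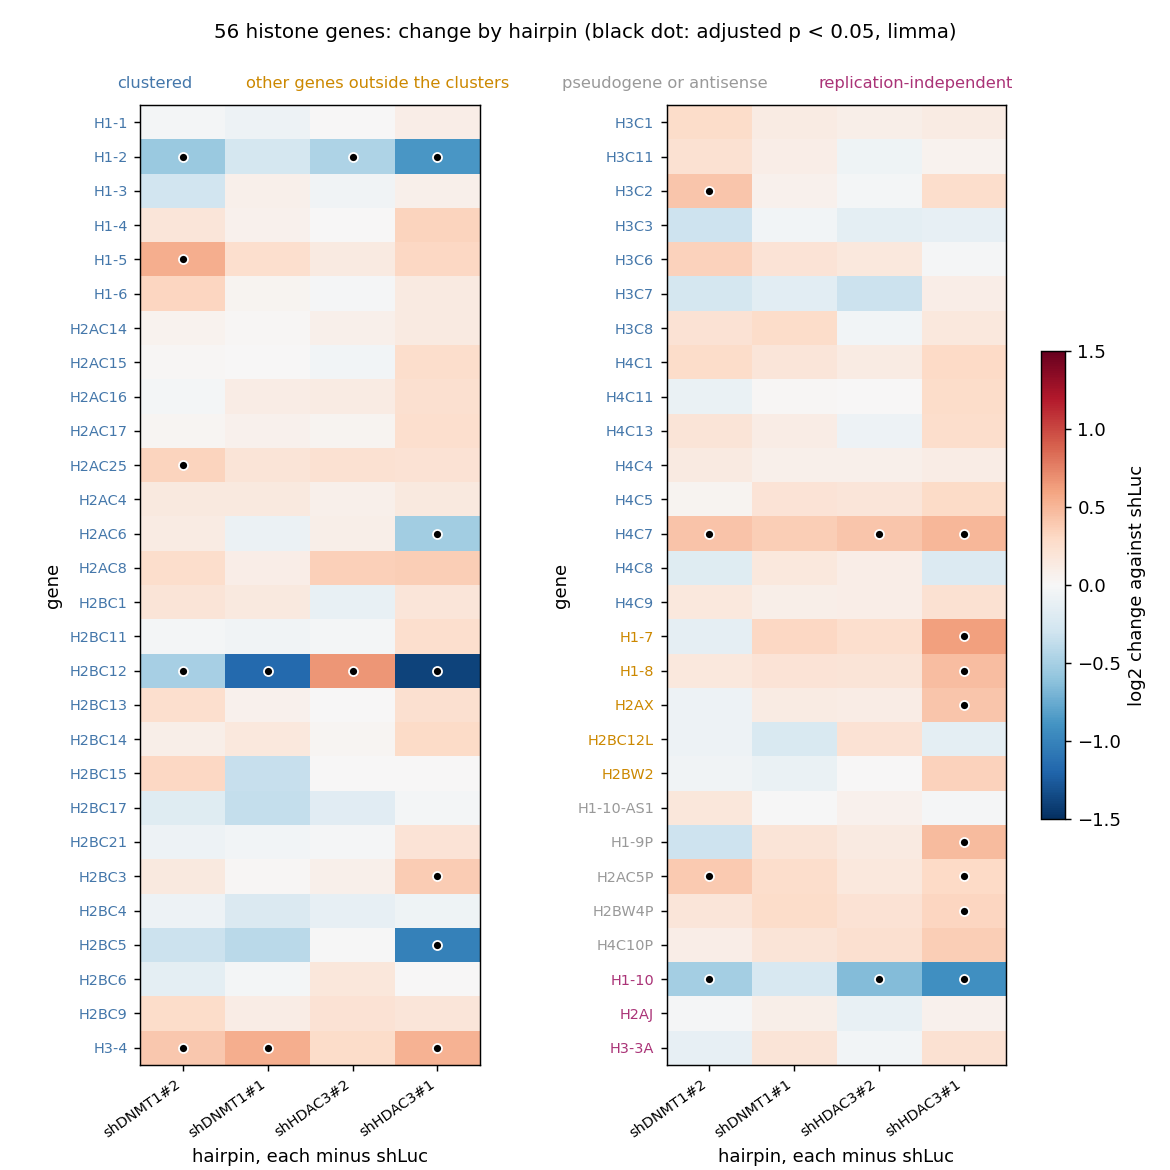
Log2 change of the 56 histone genes (rows, named in the colour of their class) with each hairpin minus shLuc (columns), red for higher and blue for lower, with a black dot where called. Most cells are pale; the darkest are H2BC12, at -1.39 with shHDAC3#1 and -1.17 with shDNMT1#1, H2BC5 at -1.01, H1-10 at -0.92 and H1-2 at -0.87, all 3 with shHDAC3#1. H2BC12 is red, at 0.66, with shHDAC3#2.

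Taken one hairpin at a time, the histone genes called lower and higher against shLuc numbered 3 and 6 with shDNMT1#2, 1 and 1 with shDNMT1#1, 2 and 2 with shHDAC3#2, and 5 and 9 with shHDAC3#1. Of all genes, 26.8% were called with shDNMT1#2 (15.2% lower and 11.6% higher), 8.15% with shDNMT1#1 (6.81% and 1.34%), 10.9% with shHDAC3#2 (9.54% and 1.31%) and 24.4% with shHDAC3#1 (16.6% and 7.83%). The histone shares of 16.1%, 3.57% and 7.14% with the first 3 hairpins were below these, and the 25% with shHDAC3#1 joined 8.93% lower, below its background, and 16.1% higher, above it. By direction, the higher genes with shDNMT1#1 (1.79%) and shHDAC3#2 (3.57%) were also above their backgrounds, on 1 and 2 genes. With shHDAC3#1 the higher genes were H1-7, H1-8, H1-9P, H2AC5P, H2AX, H2BC3, H2BW4P, H3-4 and H4C7, by 0.30 to 0.61. With shDNMT1#2 they were H1-5, H2AC25, H2AC5P, H3-4, H3C2 and H4C7, by 0.34 to 0.55. H1-10 and H1-2 were lower with shDNMT1#2, shHDAC3#2 and shHDAC3#1 (changes of -0.51, -0.65 and -0.92 for H1-10 and of -0.55, -0.47 and -0.87 for H1-2), and with shDNMT1#1 their changes of -0.24 and -0.26 were not called. In all, 35 of the 56 genes were called in none of the 9 contrasts. Their changes by hairpin ran from -0.36 to 0.37, and their unadjusted 95% intervals reached a median of 0.27 to either side. That width is not a detection limit, because larger changes also went uncalled at the adjusted threshold with 2 arrays a group.

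The hairpins of 1 target differed in some histone genes. Between the HDAC3 hairpins, shHDAC3#2 minus shHDAC3#1, 5 of 56 genes were called, against 12.6% of all genes (3.75% lower and 8.85% higher). H2BC12 had the largest difference, 2.05 ± 0.14 (SE; adjusted p = 8.27e-10), which is 4.15-fold higher with shHDAC3#2. It was followed by H2BC5 (1.01 ± 0.14 SE, adjusted p = 2.25e-05), H2AC6 (0.61 ± 0.14 SE, adjusted p = 0.00418) and H2BC12L, an H2B gene outside the large clusters (0.36 ± 0.12 SE, adjusted p = 0.0433), all higher with shHDAC3#2, and by H2AX (-0.30 ± 0.10 SE, adjusted p = 0.045), which was lower. The calls of H2BC12 and H2BC5 held in all 18 and 17 alternatives that kept their probe sets, and the H2BC12 difference stayed between 1.88 and 2.22. Without _s_at and _x_at probe sets, which can bind related transcripts, H2BC12 was the 1 gene called. The count was 3 without either shHDAC3#1 array, the first shHDAC3#2 array or either shDNMT1#2 array. H2BC5 and H2AC6 were lowest on the 2 shHDAC3#1 arrays, the ones with the high ACTB difference. H2BC12 had its lowest mean there, although 1 shDNMT1#1 array lay below the first shHDAC3#1 array. The part of the ACTB difference was not tested.

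Between the DNMT1 hairpins, shDNMT1#2 minus shDNMT1#1, 5 genes were called, against 12% of all genes (8.39% lower and 3.57% higher). H2BC12 was higher with shDNMT1#2, by 0.68 ± 0.14 (SE; adjusted p = 0.00164). H2BC15, another clustered H2B gene, measured 5.85 and 6.38 with shDNMT1#2, 5.70 and 5.21 with shDNMT1#1, 5.81 and 5.80 with shHDAC3#2 and 5.84 and 5.77 with shHDAC3#1, against 5.72 and 5.88 with shLuc, a difference of 0.67 ± 0.16 (SE; adjusted p = 0.00702) between groups with no overlap. H1-9P, a linker histone pseudogene, measured 5.78 and 5.98 with shDNMT1#2, 6.17 and 6.59 with shDNMT1#1, 6.26 and 6.39 with shHDAC3#2 and 6.73 and 6.60 with shHDAC3#1, against 6.26 and 6.12 with shLuc, and was lower with shDNMT1#2, with a difference of -0.50 ± 0.13 (SE; adjusted p = 0.0139). H1-7 (-0.44 ± 0.13 SE, adjusted p = 0.0275) and H1-3 were also lower. H1-3 measured 6.18 and 6.08 with shDNMT1#2, 6.42 and 6.57 with shDNMT1#1, 6.34 and 6.40 with shHDAC3#2 and 6.61 and 6.39 with shHDAC3#1, against 6.39 and 6.45 with shLuc, and the difference was -0.36 ± 0.11 (SE; adjusted p = 0.0422). The count was 3 without the second shDNMT1#1 array and 2 without the first shDNMT1#2 array.

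Between the 2 knockdowns, DNMT1 minus HDAC3, 5 genes were called, against 9.59% of all genes (3.59% lower and 6% higher). H1-10 was higher in the DNMT1 knockdown, and H2BC12 (-0.47 ± 0.10 SE, adjusted p = 0.00249), H1-9P (-0.37 ± 0.09 SE, adjusted p = 0.0134), H1-7 and H2AX were lower. For H2BC12 this difference is smaller than that between the 2 HDAC3 hairpins. The count was 2 without the first shHDAC3#1 or the first shDNMT1#1 array and 3 without either shHDAC3#2 array or the second shDNMT1#2 array, and H1-10 and H2BC12 were called each time. With the hairpin as a random block, limma called no gene here, with none lower and 1 higher at an unadjusted p under 0.05.

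Histone genes with near-identical sequences also share probe sets. On this array 28 probe sets carried several symbols with at least 1 histone gene, and they were fitted with all 54613 probe sets, a choice made after the values were seen. In that fit 13.3% of all probe sets were called in the DNMT1 knockdown (9.01% lower and 4.31% higher) and 12.3% in the HDAC3 knockdown (10% lower and 2.23% higher). These shares cover probe sets of all levels, and no share was computed for those with a mean of at least 9. The 8 shared probe sets with a mean of at least 9 comprised 7 for the H3.3 genes and 1 for several H4 genes. Of the 7, 4 are also annotated to the pseudogene H3P6 and 3 to the microRNA gene MIR4738. The 7 are repeated readings of the H3.3 genes, so counts among the 8 are not counts of separate genes. H3.3 is the replacement H3 made throughout the cell cycle, and the single-symbol H3-3A probe set, described above, was called in neither knockdown. In the DNMT1 knockdown 2 of the 8 were lower (median -0.20), and in the HDAC3 knockdown all 8 were (median -0.29). Without the first shLuc array limma called none of them, against 2 and 8 of them at an unadjusted p under 0.05 in the DNMT1 and HDAC3 knockdowns. In the DNMT1 knockdown none was called without the second shLuc array either (2 at an unadjusted p under 0.05), 1 was called without the second shDNMT1#2 array or either shHDAC3#1 array, and 5 were called without either shHDAC3#2 array. In the HDAC3 knockdown 3 were called without the second shLuc array, 3 without the first shHDAC3#1 array and 5 without the first shHDAC3#2 array.

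The shared probe sets differed by hairpin, all 8 between the DNMT1 hairpins and 5 of them between the HDAC3 hairpins. All 8 were lower with shDNMT1#2 (-0.49 to -0.28) and none with shDNMT1#1 (-0.12 to 0.18), against 10.5% and 4.19% of all probe sets. All 8 were lower with shHDAC3#2 (-0.68 to -0.38) and 2 with shHDAC3#1 (-0.53 to 0.06), against 6.15% and 11.1% of all probe sets. Because most of the 8 read the same H3.3 genes, they do not stand for 8 independent results beside these shares. The H4 probe set measured 10.11 and 10.20 with shDNMT1#2, 10.47 and 10.58 with shDNMT1#1, 9.90 and 10.04 with shHDAC3#2 and 10.62 and 10.80 with shHDAC3#1, against 10.60 and 10.69 with shLuc. It was lower in both groups labelled #2, with changes of -0.49 with shDNMT1#2 and -0.68 with shHDAC3#2. The 4 H3.3 probe sets shared with H3P6 showed the same split, at -0.44 to -0.41 with shDNMT1#2 and -0.03 to 0.05 with shDNMT1#1, and at -0.52 to -0.49 with shHDAC3#2 and -0.03 to 0.03 with shHDAC3#1. The 3 H3.3 probe sets shared with MIR4738 split only between the DNMT1 hairpins. With the HDAC3 hairpins they changed by -0.47, -0.38 and -0.40 with shHDAC3#2 and by -0.27, -0.53 and -0.31 with shHDAC3#1, and their differences of -0.19, 0.15 and -0.09 were not called. The hairpin difference was called for 7.9% of all probe sets between the DNMT1 hairpins and for 8.48% between the HDAC3 hairpins. In H2BC12 the HDAC3 hairpins stood in the opposite order. The other 20 shared probe sets, with means under 9, were called lower once and higher in 2 cases in the HDAC3 knockdown and never in the DNMT1 knockdown. The lower call was another H3.3 probe set shared with MIR4738, with a mean of 7.11. It had the largest fall of the 28 in the HDAC3 knockdown, -0.90, with -0.83 for shHDAC3#2 and -0.97 for shHDAC3#1.

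**Figure D4:**
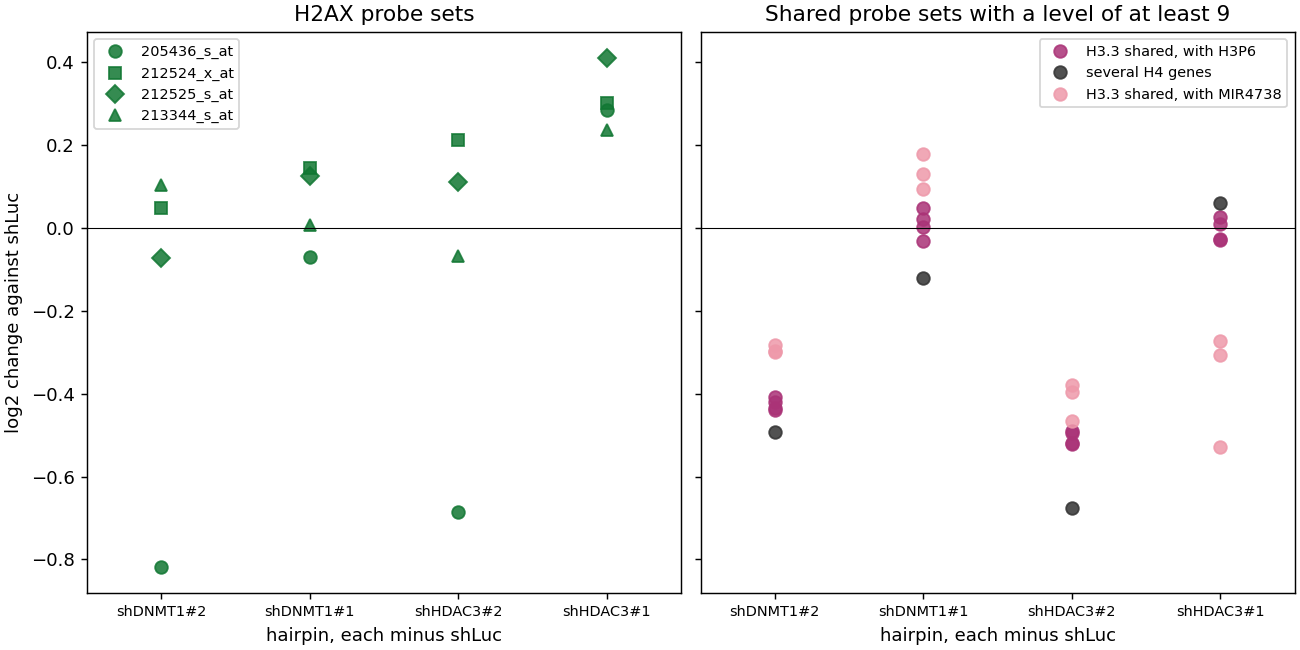
Log2 change against shLuc with each hairpin (horizontal axis) for the 4 H2AX probe sets (left) and the 8 shared H3.3 and H4 probe sets with a mean of at least 9 (right). One H2AX probe set sits at -0.82 with shDNMT1#2 and -0.69 with shHDAC3#2, apart from the other 3, and all shared probe sets lie below 0 with those 2 hairpins.

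Genes that make histone messages, process them and deposit the proteins were lower in nearly all cases where they were called. Of 26 measured genes for histone transcription and 3′ end processing, 9 were lower and 0 higher in the DNMT1 knockdown (median -0.20) and 7 lower and 0 higher in the HDAC3 knockdown (median -0.15), against 13.5% and 15.3% of all genes lower and 6.66% and 3.96% higher. All 26 averaged at least 5. With genes under that mean removed, 10 and 7 of the 26 were lower and 0 and 1 higher. In that setting 2705 and 3099 of 14763 genes were lower, a larger share than over all genes. In the fit of all genes, 4 and 3 of the 26 were lower without the first shLuc array. With the hairpin as a random block limma called 0 in both, with 6 lower and 0 higher in each at an unadjusted p under 0.05. CASP8AP2, which histone gene expression in S phase needs, changed by -0.85 and -0.68 in the DNMT1 and HDAC3 knockdowns, and SLBP, the stem-loop binding protein, by -0.72 and -0.57. NPAT, the coactivator of clustered histone genes, fell by 0.69 in the DNMT1 knockdown and changed by -0.31 in the HDAC3 knockdown, where it was not called. The difference of -0.38 between the knockdowns was called (adjusted p = 0.0295, limma). The processing endonuclease CPSF3 changed by -0.47 and -0.45, and the exonuclease ERI1 by -0.53 in the HDAC3 knockdown.

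Of 27 histone chaperone and assembly genes, 14 were lower and 1 higher in the DNMT1 knockdown and 12 lower and 1 higher in the HDAC3 knockdown, with medians of -0.30 and -0.21, beside the same 13.5% and 15.3% of all genes lower. With genes of a mean under 5 removed, 14 and 13 of the 27 were lower, beside 2705 and 3099 of 14763 genes. The random block left 0 called in either, with 10 lower and 1 higher in each at an unadjusted limma p under 0.05. MIS18A, which prepares centromeres for CENP-A, changed by -0.94 and -1.18, the H3-H4 chaperone DNAJC9 by -0.86 and -0.87, and HAT1, which acetylates new H4, by -0.77 and -0.75. HJURP, the CENP-A chaperone, changed by -0.69 in the DNMT1 knockdown, and ASF1A, which passes H3-H4 to the assembly factors, by -1.13 in the HDAC3 knockdown, a difference of 0.76 between the knockdowns (DNMT1 minus HDAC3, adjusted p = 2.35e-06). The gene that rose in both was CDAN1, a partner of ASF1. No higher gene of this list was called without the first shLuc array (0 at an unadjusted limma p under 0.05), in the DNMT1 knockdown without the second shDNMT1#1 array or either shDNMT1#2 array, or in the HDAC3 knockdown without either shHDAC3#1 array or the first shHDAC3#2 array (1 or 2 at an unadjusted p under 0.05).

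Of 27 S phase markers, 23 were lower and 0 higher in each knockdown, with medians of -0.63 in the DNMT1 knockdown and -0.66 in the HDAC3 knockdown, against 13.5% and 15.3% of all genes lower. With genes of a mean under 5 removed, 22 of 26 markers were lower in each, beside 2705 and 3099 of 14763 genes. With the random block 2 and 3 markers were called lower, of 31 and 73 genes called in all, and 21 and 19 were lower at an unadjusted p under 0.05. UHRF1, which recruits DNMT1 to replicated DNA, changed by -1.61 and -1.68, the S phase cyclin gene CCNA2 by -1.47 and -0.98, and RRM2, a ribonucleotide reductase subunit, by -1.01 and -1.07. By hairpin the medians were -0.82 with shDNMT1#2, -0.41 with shDNMT1#1, -0.82 with shHDAC3#2 and -0.43 with shHDAC3#1. The 2 hairpins with the larger S phase decrease were shDNMT1#2 and shHDAC3#2. With them the brightest of the 6 shared H4 probe sets and the 4 H3.3 probe sets shared with H3P6 were lower. All of these have a mean of at least 9. The 3 shared with MIR4738 at that level did not follow this split between the HDAC3 hairpins. Medians of other histone sets did not fall with shDNMT1#2 and shHDAC3#2. They were 0.14 and 0.03 over the 43 clustered genes and 0.15 and 0.10 over the clustered H4 genes. Over the shared probe sets with a mean under 9 they were 0.04 and 0.07. The part of S phase in any of these values was not tested. Of the histone variants not included above, 6 were measured. H2AZ1 changed by -0.57 and -0.51 and H2AZ2 by -0.28 and -0.82 in the DNMT1 and HDAC3 knockdowns, all called, with H2AZ2 higher in the DNMT1 than in the HDAC3 knockdown by 0.54 (adjusted p = 1.86e-06). MACROH2A1, another H2A variant gene, changed by -0.10 and -0.30 and was called in the HDAC3 knockdown, while its difference between the knockdowns was not (adjusted p = 0.0696).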

How the data were processed

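Total RNA of MM.1S cells was labelled with biotin and hybridized to Affymetrix 3′ arrays, per the labels. The deposited values are log2 signals per probe set, made by the authors with RMA (background correction, normalization and summary of probes) per the submitters' processing notes; the sources used here give no RMA settings. Probe sets were named from GEO's platform annotation and checked against RefSeq (GRCh38.p14), which changed 0 symbols: of 54675 probe sets, 41097 had 1 symbol, 1801 several and 11777 none. Of those with 1 symbol, 41043 matched RefSeq. The brightest single-symbol probe set stood for a gene.

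All 19775 genes were fitted with limma 3.58.1 in R 4.3.3 (lmFit, 5 group means, eBayes with a trend, 5 residual degrees of freedom), with Benjamini-Hochberg adjustment over all genes. Intervals are at 95%. Tables and figures were made in Python 3.11.15 with pandas 2.3.3 and matplotlib 3.10.9. On simulated data of 19775 genes, 100 genes were changed by 0.5 and 100 by 1 (log2). In the DNMT1 comparison 90% and 100% of them were recovered, and 8 of 198 calls were false. In the HDAC3 comparison 79% and 100% were recovered, and 9 of 188 calls were false. Recovery in the measured arrays, where hairpins of 1 target differed, was not tested. Named genes were, by rule, the up to 6 genes with the largest called change in each direction in each knockdown, up to 3 in each direction in the other comparisons, the replication-independent genes with a mean of at least 5, H2AX, and up to 4 called genes of each pathway list. H2AC25, H2BC3, H2BW4P, H3C2, H1-10-AS1, H2BC6 and H2BC12L were added after their values were seen. The members and lists were chosen with earlier results of these data known. Same-numbered arrays of different groups correlated between -0.34 and 0.27 in their deviations from the group means, so that replicate numbers were not taken as pairs. Alternatives were a filter at a mean of 5, probe sets averaged per gene, no _s_at or _x_at probe sets, further quantile normalization, centring, eBayes without the trend, a replicate block, the hairpin as a random block, only the arrays compared, and leaving out each array. The random block and the left-out arrays were added for the pathway lists after their values were seen.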

Additional observations from a re-analysis of the deposited data

Results flagged for a closer look

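Each of the following differences between hairpins of the same target, or between the 2 knockdowns, was called by limma in a test of the difference itself, on the log2 scale. Between the HDAC3 hairpins (shHDAC3#2 minus shHDAC3#1) these were H2BC12 at 2.05, H2BC5 at 1.01, H2AC6 at 0.61, H2BC12L at 0.36 and H2AX at -0.30. Between the DNMT1 hairpins (shDNMT1#2 minus shDNMT1#1) they were H2BC12 at 0.68, H2BC15 at 0.67, H1-9P at -0.50, H1-7 at -0.44 and H1-3 at -0.36. Between the knockdowns (DNMT1 minus HDAC3) they were H1-10 at 0.41, H2BC12 at -0.47, H1-9P at -0.37, H1-7 at -0.35 and H2AX at -0.23. H2BC12 was the 1 histone gene found in all 3 of these comparisons, which share arrays. With groups of 2 arrays, no array could be tested as standing apart within its group.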

How the results depend on the processing

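The calls depended on few arrays and on how hairpins were treated. Leaving out 1 array at a time gave 1 to 4 lower and 0 to 8 higher histone genes in the DNMT1 knockdown, 2 to 4 lower and 0 to 8 higher in the HDAC3 knockdown, 2 to 6 called between the knockdowns, 3 to 7 between the HDAC3 hairpins and 2 to 5 between the DNMT1 hairpins. With the hairpin as a random block (estimated correlation 0.35), 0 genes were called lower or higher in either knockdown or between them, and 31 and 73 of all genes were called in the DNMT1 and HDAC3 knockdowns. Without _s_at and _x_at probe sets, 43 histone genes remained, with 2 called lower in the DNMT1 knockdown, 2 lower and 3 higher in the HDAC3 knockdown, 3 between the knockdowns and 1 between the HDAC3 hairpins. With probe sets averaged per gene, 2 were lower in the DNMT1 knockdown and 3 differed between the knockdowns. The replicate block gave 3 genes between the HDAC3 hairpins and moved no other count by over 1.5 times; the numbers are not pairs in the labels. Fitting only the shHDAC3 arrays gave 8. The cause of these shifts was not tested, apart from the fewer genes and arrays in some fits. Over all genes, lower calls made up 67.0% of calls in the DNMT1 knockdown and 79.4% in the HDAC3 knockdown, and 53.8% and 55.6% after further quantile normalization. Among the named genes, 1499 values kept their side of the threshold, whether called or not. A further 122 were no longer called and 18 became called. None of the called values changed direction, but some uncalled ones did: H2BC15 in the DNMT1 knockdown ran from -0.15 to 0.11. Signals near background limit what the 22 genes with means under 5 can show.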
